A study of Mus musculus with 5 samples.

Results

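The last interval of an osteoclast culture, day 5 against day 3, was compared gene by gene. It rests on 2 of the 5 arrays of a time course in which bone marrow-derived macrophages of wild-type mice aged 10 weeks were grown toward osteoclasts. Of 22180 genes with a row naming that gene alone, 12049 were measured, which means that their mean over the 5 arrays reached 4.89, the median of the row means. Values are log2 expression as deposited, and every difference is the day 5 value minus the day 3 value. The gene with the mean closest to the level from above, Ooep, had a difference of -0.26, and the one just below it, 5031425F14Rik, a difference of 0.0036. The day 3 and day 5 cells were both wild-type and had the same treatment for different times. Both grew on plastic in RANKL at 30 ng/ml together with M-CSF at 20 ng/ml. The earlier arrays are days 0, 1 and 2 of the same scheme. Plastic is not a substrate that can be resorbed, and an array of cells kept in M-CSF alone for 5 days was not analysed here. The labels do not say how many mice or cultures gave each RNA. With 1 array per day there is no replicate, so no difference has an error between cultures and none was tested.

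Osteoclasts form when RANKL binds its receptor RANK on myeloid precursors that M-CSF keeps alive. Signals through TRAF6, NF-kappaB and the ITAM adaptors lead to the transcription factor NFATc1, which drives genes for fusion, acid secretion and matrix digestion. The cells become multinucleated, stop dividing and lose many macrophage features, and their life in culture is short.

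Days 3 and 5 were the closest of the 10 pairs of arrays. The SD of their differences over the measured genes was 0.24, against 0.43 to 0.83 in the other 9 pairs, and 33 genes lay at least 2-fold apart, against 364 to 1782. The arrays were on one scale, with medians over all rows of 4.88 to 4.92. Genes with several rows gave a yardstick within an array. In 442 such genes the differences of 2 rows disagreed with an SD of 0.29, which is 0.21 for 1 row. The SD of 0.24 over genes is close to that, so most differences of single genes are of the size of the disagreement between rows. That yardstick does not cover the spread between cultures. Osteoclast markers were high on both arrays, as the label of a late culture would have them. Acp5, the tartrate-resistant acid phosphatase, was at 7.10 at day 0, 10.56 at day 1, 12.39 at day 2, 12.76 at day 3 and 12.86 at day 5. Mmp9, a matrix metalloproteinase, was at 8.05 at day 0, 11.94 at day 1, 13.29 at day 2, 13.66 at day 3 and 13.64 at day 5. Their last differences were 0.10 and -0.027.

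Higher and lower genes were nearly balanced. The median difference of the measured genes was 0 and the quartiles were -0.11 and 0.12. At day 5, 19 genes were at least 2-fold higher, 0.158% of those measured, and 14 were at least 2-fold lower, 0.116%. At a shift of 0.25 or more in size, 1495 genes (12.4%) were higher and 1256 (10.4%) lower. In all, 5513 genes (45.8%) were above 0, 5421 (45%) below 0 and 1115 (9.25%) equal on both arrays. Exactly equal values made up 7.68% to 9.72% of genes across the 10 pairs of arrays. The balance of higher and lower genes depends on the scaling. When each array was centred on the mean of 10 reference genes, every difference shifted by -0.081, and the genes at 0.25 or more became 909 higher and 2088 lower (30.3% higher of both, against 54.3% as deposited). At 2-fold they became 13 higher and 27 lower. The 10 reference genes themselves had a mean difference of 0.081 but a median of 0.022. Of them 5 were above 0 and 5 below it, and 3 were at least 0.25 higher and 0 at least 0.25 lower. Directions of small shifts are therefore relative to the deposited scale, and every count of 0.25 or more is to be read against 12.4% and 10.4%. Counts above and below 0 are to be read against 45.8% and 45%.

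The 2-fold genes lay low on the scale. In 4 bands of equal size by mean level, 21 of the 33 lay in the lowest band and 0 in the highest. The SD of the differences was 0.29 in the lowest band, 0.27 in the second, 0.21 in the third and 0.17 in the highest. In 22 of the 33 both values were under 7.06, near the upper quartile of all rows. Genes with high levels differed less, as the plot of difference against level shows.

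**Figure D1:**
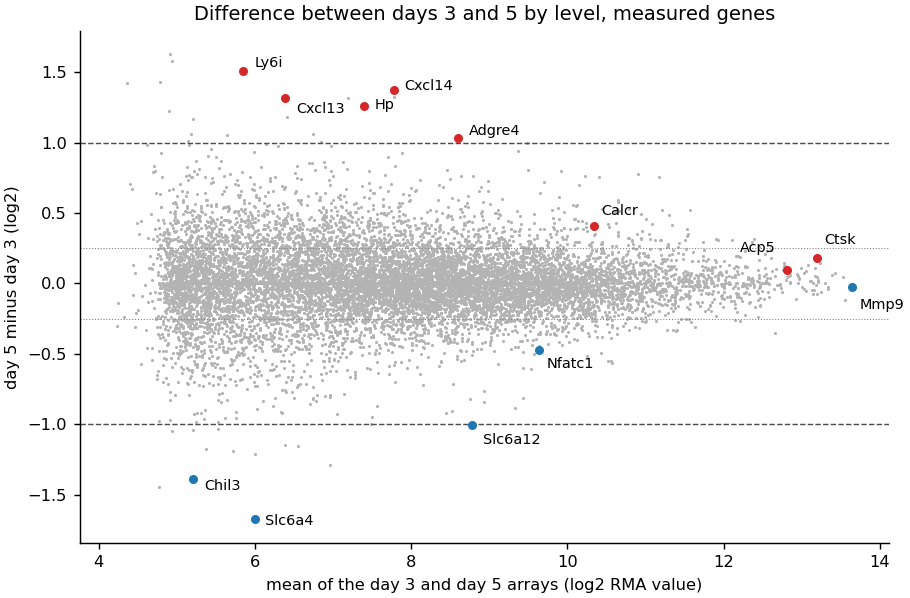
Each point is 1 of the 12049 measured genes: the x axis is the mean log2 expression at days 3 and 5, and the y axis is day 5 minus day 3. Dashed lines mark a difference of 1 (2-fold) and dotted lines 0.25, and 13 labelled genes are red where above 0 and blue where below. The SD falls from 0.29 in the lowest of 4 bands of level to 0.17 in the highest.

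The named genes with the largest positive differences were of mixed kinds. Some were secreted or surface proteins, whose share over all measured genes was not counted. In bulk RNA, a change in the number of cells of a type and in the RNA per cell cannot be told apart. Cxcl14, a chemokine, was at 10.70 at day 0, 9.05 at day 1, 8.68 at day 2, 7.09 at day 3 and 8.46 at day 5. It was 2.59-fold higher at day 5 than at day 3, after its lowest value of the series at day 3. Ly6i, a GPI-anchored protein of the Ly6 family, was at 4.79 at day 0, 5.10 at day 1, 5.10 at day 2, 5.10 at day 3 and 6.61 at day 5. It was 2.85-fold higher at day 5 than at day 3, and days 1, 2 and 3 held the same value. Exactly equal values were common in every pair of arrays, so this tie is not a measure of constancy. Ly6 genes have near-identical copies, and cross-hybridisation of their probes was not tested. Cxcl13, a chemokine that attracts B cells, was at 5.73 at day 3 and 7.05 at day 5, its highest of the series (2.49-fold). Hp, haptoglobin, which binds free haemoglobin, was at 6.77 at day 3 and 8.03 at day 5 (2.40-fold). Adgre4, an adhesion G protein-coupled receptor related to F4/80, was at 8.09 at day 3 and 9.12 at day 5, with day 0 at 6.43. Pde7b, a cAMP phosphodiesterase, was at 6.34 at day 3 and 7.34 at day 5, near its day 0 value of 7.01. In each of these 4 genes day 5 was the highest array of the series. Ciart, a repressor in the circadian clock, was at 4.63 at day 3 and 5.65 at day 5, and Nbl1, an antagonist of BMP signals, at 4.62 at day 3 and 5.79 at day 5. Cxcl13 and Nbl1 count as measured only because day 5 enters the mean over the 5 arrays. At days 0, 1 and 2 Cxcl13 was at 4.40, 4.79 and 4.46, and Nbl1 at 4.96, 4.73 and 5.08.

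The largest positive difference among the named genes belonged to Polr2l, a small subunit shared by the RNA polymerases, at 5.74 at day 0, 6.70 at day 1, 5.81 at day 2, 4.14 at day 3 and 5.72 at day 5. Its day 3 value was the lowest of the series and day 5 was close to day 0, 1.58 above day 3. H4c14, a histone H4 gene, also had its minimum at day 3, at 5.82, and was 1.18 above it at day 5. Serpinb9b, a serpin, had its minimum there too, at 6.21 at day 3 and 7.27 at day 5. The second row of Serpinb9b differed by only 0.12, but it lay low on the scale, at 4.61 at day 3 and 4.72 at day 5. Radil, an effector of Rap GTPases, was at 5.11 at day 3 and 6.17 at day 5. Trim43c, Wdr54 and Pramel33 completed the 15 named genes, with differences of 1.43, 1.23 and 1.06. In 9 of the 15, day 3 was the lowest of the 5 arrays, and in 9, day 5 was the highest. In 10 of the 15 both values were under the upper quartile of all rows.

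Slc6a4, the serotonin transporter, had the largest negative difference. It was at 4.20 at day 0, 7.78 at day 1, 7.36 at day 2, 6.83 at day 3 and 5.16 at day 5. After its maximum at day 1 each later array was lower, and day 5 was 3.20-fold below day 3. Chil3, a chitinase-like protein of macrophages and granulocytes, was at 6.04 at day 0, 6.47 at day 1, 5.60 at day 2, 5.91 at day 3 and 4.52 at day 5. Day 5 was the lowest of the 5 arrays, 2.62-fold below day 3. Slc6a12, a betaine and GABA transporter, was at 6.74 at day 0, 8.28 at day 1, 8.45 at day 2, 9.29 at day 3 and 8.28 at day 5. It had a single maximum at day 3.

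Several genes with a maximum at day 3 were lower at day 5. Tdgf1, a co-receptor for Nodal, was at 6.96 at day 3 and 5.81 at day 5 with day 0 at 5.43. Apol7c, of the apolipoprotein L family, was at 7.61 at day 3 and 6.31 at day 5 with day 2 at 3.65. Krba1 was at 7.98 at day 3 and 6.98 at day 5 with day 0 at 5.02. Nrg1, a ligand of ERBB receptors, was at 6.05 at day 3 and 5.01 at day 5. Tspan33, a tetraspanin, was at 6.32 at day 3 and 5.13 at day 5. In other genes day 5 was the lowest array of the series and day 0 the highest. Nt5e, the ectonucleotidase CD73, was at 5.46 at day 3 and 4.41 at day 5. Fcho1, which acts in clathrin-mediated endocytosis, was at 6.23 at day 3 and 5.27 at day 5. The other 5 of the 15 were Frg2f8 (-1.44), Krtap9-1 (-1.18), Them6 (-0.99), Spag6 (-0.98) and Fam189b (-0.95). The other row of Spag6 differed by 0.08 and lay low on the scale, at 3.41 at day 3 and 3.50 at day 5. Day 5 was the lowest of the 5 arrays in 9 of the 15, and day 3 the highest in 7. In 12 of the 15 both values were under the upper quartile. Of the 33 genes at least 2-fold apart, 7 are of the kinds left unnamed, among them 1 small nucleolar RNA, 2 microRNA genes, 1 olfactory receptor, 1 predicted gene and 1 RIKEN clone. The small nucleolar RNA had the largest positive difference of all measured genes (1.63).

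**Figure D2:**
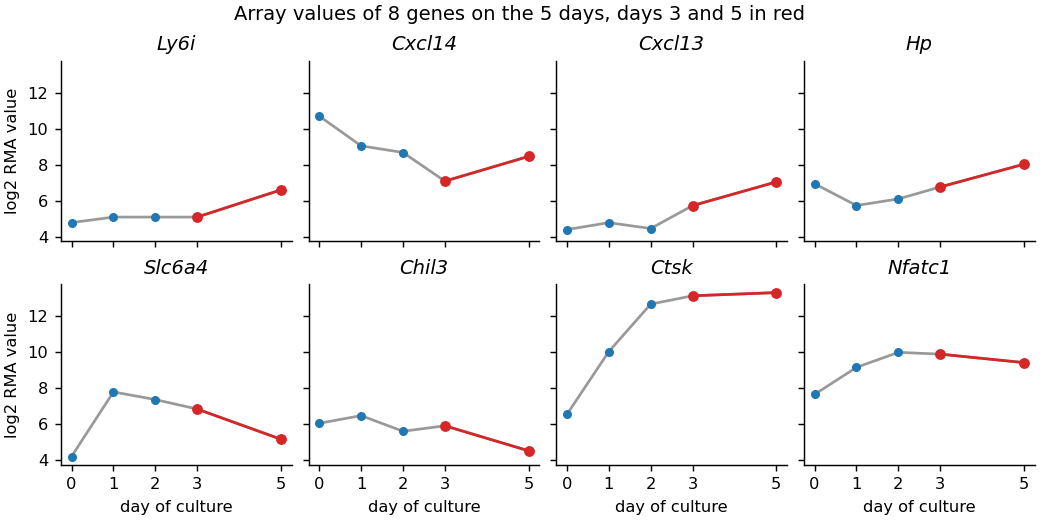
Log2 expression (y axis) of 8 genes on the arrays of days 0, 1, 2, 3 and 5 (x axis), 1 array per day, with days 3 and 5 in red. Ly6i, Cxcl14, Cxcl13 and Hp were more than 2-fold higher at day 5 than at day 3 and Slc6a4 and Chil3 more than 2-fold lower, whereas Ctsk differed by 0.18 and Nfatc1 by -0.47. Cxcl13 reached the level filter only through its day 5 value.

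The resorption machinery differed little between the last days. The median of 16 measured genes was -0.022, with 6 above 0 and 10 below 0 (45.8% and 45% over all measured genes). None was at least 0.25 higher and 2 were at least 0.25 lower (12.4% and 10.4%). Ctsk, cathepsin K, the main collagenase of the osteoclast, was at 13.11 at day 3 and 13.29 at day 5 (0.18). Car2, carbonic anhydrase II, which supplies protons, was at 10.53 at day 3 and 10.40 at day 5 (-0.13). The largest negative differences were of Mmp14, a membrane-bound metalloproteinase (-0.27), and Plekhm1, a lysosome trafficking adaptor (-0.27). Against day 0 the list's median was 0.41 at day 1, 1.34 at day 2, 1.95 at day 3 and 1.94 at day 5, so the last step was the smallest one. The 18 measured subunits of the proton pump V-ATPase had a median of -0.067 (-0.15 with the reference centring), and 6 were above 0 and 12 below it. The 1 subunit at least 0.25 higher was Atp6v0a1, at 8.63 at day 3 and 8.91 at day 5. The most negative were Atp6v1f (-0.24) and Atp6v1d (-0.20).

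Fusion genes differed little as a list, and podosome genes were more often below 0. Dcstamp, the main fusion receptor, was at 12.43 at day 3 and 12.64 at day 5 (0.21), and Ocstamp, its partner, at 10.13 at day 3 and 10.05 at day 5 (-0.081). In the fusion list of 11 measured genes the median was 0.11, or 0.024 with the reference centring. In it 2 were at least 0.25 higher and 1 at least 0.25 lower, against 12.4% and 10.4% of all measured genes. Dock1, a Rac exchange factor (0.50), and the tetraspanin Cd81 (0.43) were the higher ones and Sh3pxd2a, a podosome adaptor (-0.36), the lower. In the podosome and sealing zone list the median of 20 genes was -0.11, or -0.19 with that centring, and 13 were below 0 and 7 above it. There 1 was at least 0.25 higher and 4 at least 0.25 lower. Src, the kinase required for the ruffled border, was at 9.88 at day 3 and 9.39 at day 5 (-0.49). Pxn, paxillin (-0.41), Scin, an actin-severing protein (-0.32), and Cttn, cortactin (-0.30), were the other lower ones, and Lpxn, leupaxin, the higher (0.31). Itgb3, the integrin beta chain of the vitronectin receptor, was at 10.47 at day 3 and 10.37 at day 5 (-0.10).

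The signalling list of RANK, ITAM and osteoclast transcription genes had members in both directions. Of 25 measured members 3 were at least 0.25 higher and 8 at least 0.25 lower, with a median of -0.027 (-0.11 with the reference centring). Nfatc1 was at 7.65 at day 0, 9.14 at day 1, 9.98 at day 2, 9.88 at day 3 and 9.41 at day 5. Its maximum was at day 2, and day 5 was -0.47 from day 3. The other lower members were Prdm1, a repressor that removes brakes on osteoclast formation (-0.44), the RANK adaptor Traf6 (-0.41), Jdp2 (-0.34), Fosl2 (-0.31), the coactivator Ppargc1b (-0.30), Bhlhe40 (-0.28) and Relb (-0.25). All 8 but Traf6 act in transcription, but the list was drawn in part from such genes, and their share in it was not counted. The higher members were Trem2, an ITAM-coupled receptor, at 10.41 at day 3 and 10.92 at day 5 (0.51), Calcr, the calcitonin receptor, at 10.13 at day 3 and 10.54 at day 5 (0.41), and Mef2c, also a transcription factor (0.29). The ITAM adaptors Tyrobp (0.23) and Fcer1g (0.20) and the receptor Oscar (0.16) were above 0 but under 0.25. Known negative regulators were more often higher than lower. Of 15 measured, 5 were at least 0.25 higher and 2 at least 0.25 lower, with a median of 0.18. That median was 0.10 with the reference centring and 0.11 with the 75th percentile filter, and the mean over members was 0.089. Id1, an inhibitor of bHLH factors, was at 5.88 at day 3 and 6.36 at day 5. Id3 (0.34), the inhibitory receptors Pirb (0.31) and Lilrb4a (0.26) and Cebpb (0.30) were higher too. The deubiquitinases Tnfaip3 (-0.42) and Cyld (-0.30) were lower, and Irf8 had a difference of 0.11 (-0.059 in its second row).

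Macrophage identity genes were mostly higher at day 5. Of 29 measured macrophage identity genes 17 were at least 0.25 higher and 1 at least 0.25 lower, and the median was 0.37 (0.29 with the reference centring). Of these genes only Adgre4 passed 2-fold. Cebpa, a myeloid transcription factor, was at 7.10 at day 3 and 7.81 at day 5, Fcgr1, the high-affinity IgG receptor, at 7.57 at day 3 and 8.21 at day 5, and C1qa, a chain of complement C1q, at 10.36 at day 3 and 10.95 at day 5. Msr1, a scavenger receptor (0.55), Cd14 (0.52), Apoe (0.50), Axl, a receptor for apoptotic cells (0.48), and Mertk (0.30) were higher. Cx3cr1, the fractalkine receptor, was at 5.86 at day 3 and 6.23 at day 5. Lyz1 was the 1 member at 0.25 or more lower (-0.31). The M-CSF receptor gene and F4/80 differed little. Csf1r was at 12.34 at day 3 and 12.36 at day 5 and Adgre1, which encodes F4/80, at 10.92 at day 3 and 10.93 at day 5. Against day 0 the list's median was -1.24 at day 1, -1.75 at day 2, -1.03 at day 3 and -0.68 at day 5, so its minimum came at day 2.

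Complement genes were higher as well, and families of phagocyte receptors varied. All 11 measured complement genes were above 0, with a median of 0.40 (0.32 with the reference centring), and 9 of them were at least 0.25 higher. The 3 C1q chains are also in the macrophage list. Cfb, factor B of the alternative pathway, was at 6.77 at day 3 and 7.40 at day 5, C5ar1, the C5a receptor, at 8.37 at day 3 and 8.90 at day 5, and C3ar1 at 10.33 at day 3 and 10.73 at day 5. The smallest difference was that of Cr1l (0.0055). In the MS4A family of membrane proteins the median of 8 was 0.42, but 0.076 over the 20 members with a row when no level filter was set, with Ms4a4a (0.77) and Ms4a6d (0.70) the most positive and Ms4a3 (-0.27) the most negative. Of 11 Toll-like receptors 9 were above 0 and 1 below it, and 3 were at least 0.25 higher and 0 at least 0.25 lower, at a median of 0.18 (0.10 with the reference centring). Tlr13, a sensor of bacterial ribosomal RNA, was at 9.34 at day 3 and 10.06 at day 5. Among 13 Siglec and CD300 genes 7 were above 0 (53.8%) and 3 below it (23.1%), against 45.8% and 45% of all measured genes. Of these 13, 6 were at least 0.25 higher and 0 at least 0.25 lower. Their median was 0.19, 0.11 with the reference centring, 0.051 with no level filter and 0.40 with the 75th percentile filter (5 members). Cd300ld was 0.53 higher and Cd300a 0.42. Of 8 Fc receptor genes 4 were above 0 (50%) and 2 below it (25%). In this list 3 were at least 0.25 higher and 1 at least 0.25 lower, at a median of 0.10 (0.017 with the reference centring).

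Among markers of other cells, granulocyte markers were lower at day 5. Of 14 measured of 18 listed, 1 was at least 0.25 higher and 8 at least 0.25 lower, at a median of -0.31. The median level of the measured markers was 5.86 at day 3 and 5.35 at day 5, low on the scale. S100a9 was at 6.79 at day 3 and 6.01 at day 5, Elane, neutrophil elastase, at 5.30 at day 3 and 4.52 at day 5, and Ltf, lactoferrin, at 6.02 at day 3 and 5.34 at day 5. Ngp (-0.59), Prtn3 (-0.62), Lcn2 (-0.45), Mpo (-0.35) and S100a8 (-0.27) were lower too, and Csf3r, the G-CSF receptor, was higher (0.54). Chil3 is also made by granulocytes, and the part of these cells in its difference was not tested. T and NK cell markers numbered 4 measured, at a median of 0.013 with 1 at least 0.25 higher and 0 at least 0.25 lower, and Cd3e and Cd3g were below the level filter. The B and plasma cell list had 2 measured, at a median of 0.12 with 0 at 0.25 or more either way, and Cd79a was below the filter. The 3 measured stromal markers were Dcn (-0.87), Pdgfrb (-0.092) and Col1a1 (0.14). The 4 endothelial and adipocyte markers lay in both directions, with Kdr (-0.91) and Eng (-0.091) below 0 and Cdh5 (0.24) and Vwf (0.38) above it. Of 6 dendritic cell markers 4 were above 0 and 1 below it, at a median of 0.13. The part of any of these cells in the macrophage shift was not tested.

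Interferon-stimulated genes were higher together, at day 5, whereas interferon-inducible GTPases and antigen presentation genes did not share that direction. Of 39 measured interferon-stimulated genes 19 were at least 0.25 higher and 1 at least 0.25 lower, and 32 were above 0 and 6 below it, at a median of 0.24 (0.15 with the reference centring). Ifi204, a DNA sensor of the IFI200 family, was at 6.78 at day 3 and 7.59 at day 5. Irf7, the factor that amplifies interferon induction, was at 8.13 at day 3 and 8.87 at day 5. Trim30a (0.73), Phf11d (0.63) and Oas3, an RNA-sensing synthetase (0.59), were among the largest. Ifi209 (-0.27) was the 1 member at 0.25 or more lower, and Cxcl10 had -0.20. Against day 0 the list's median was -1.03 at day 2, -0.11 at day 3 and 0.13 at day 5. Of all measured genes at least 2-fold lower at day 2 than at day 0, 42.7% were at least 0.25 higher at day 5 than at day 3. The share in this list was 48.7%, so a shift of this kind is not particular to it. The GTPases had a median of 0.022 at day 2 against day 0. The 8 measured GTPases had a median of -0.082 (-0.16 with the reference centring). Gbp7 was at 8.51 at day 3 and 7.79 at day 5, Iigp1 had -0.52 and Irgm2 0.27. MHC class I genes (13, median -0.029, centred -0.11) included the peptide transporter genes Tap2 (-0.44) and Tap1 (-0.29). MHC class II genes (9) had a median of 0.049, which turned to -0.032 with the reference centring, with H2-Ab1 at 0.39 and H2-DMb1 at -0.32. The 6 interferon regulatory factors had a median of 0.05, -0.031 with that centring, and Irf1 was lower (-0.28).

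Promoters of these genes were searched for the letters that interferon-activated factors are known to bind. Windows came from RefSeq on GRCm38.p6, 250 bases before to 50 bases after the start. The ISRE-like motif (GAAA, any 2 bases, GAAA) was searched on both strands, and capitals mark its match. Shown, to let the matches be seen in context, are 100 bases upstream of the start in 4 members at least 0.25 higher, from chr7:104465194-104465293, minus strand (Trim30a), chr5:120777665-120777764, minus strand (Oas3), chr11:83020811-83020910, minus strand (Slfn8) and chr11:82951917-82952016, plus strand (Slfn5), written 5′ to 3′ along the gene's own strand. They end 1 base before the start in Trim30a and Slfn8, 6 before it in Oas3 and 86 before it in Slfn5.
Trim30a: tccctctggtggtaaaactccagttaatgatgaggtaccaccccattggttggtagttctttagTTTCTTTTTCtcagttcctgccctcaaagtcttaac
Oas3: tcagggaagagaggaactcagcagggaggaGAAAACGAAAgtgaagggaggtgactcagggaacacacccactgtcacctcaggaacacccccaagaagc
Slfn8: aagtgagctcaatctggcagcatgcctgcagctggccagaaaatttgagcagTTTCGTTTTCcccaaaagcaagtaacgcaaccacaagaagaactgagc
Slfn5: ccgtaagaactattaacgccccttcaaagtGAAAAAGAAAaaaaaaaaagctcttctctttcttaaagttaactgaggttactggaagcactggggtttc
A match was found in 15 of the 29 list members with a promoter window (51.7%), against 349 of 9534 measured genes with one (3.66%). Of the 23 matches, 0 overlapped another motif searched. Within the list the match did not separate the differences: the median was 0.20 in the 15 with it and 0.21 in the 14 without, and 7 and 6 were at least 0.25 higher. A match describes letters in this window and is not a binding site.

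**Figure D3:**
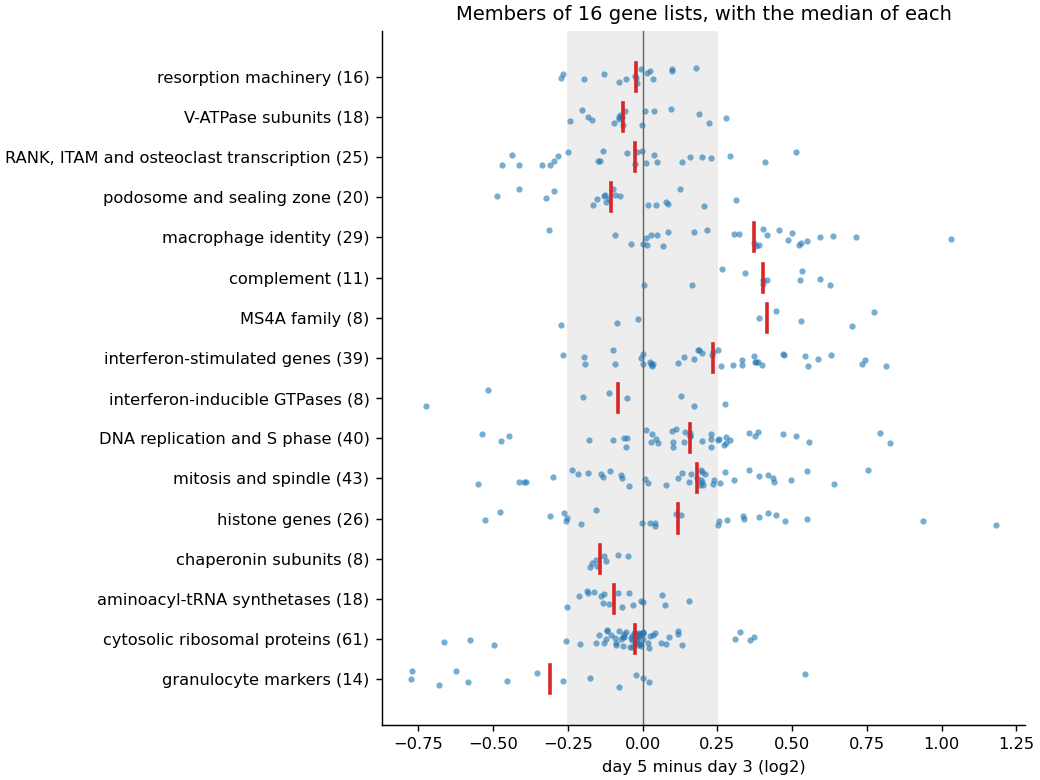
Differences of day 5 minus day 3 (x axis, log2) for measured members of 16 gene lists (rows), 1 dot per gene, with the median as a red bar and a grey band from -0.25 to 0.25. Macrophage, complement and interferon-stimulated genes lie to the right of 0, granulocyte markers to the left, and resorption genes around 0.

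Replication and mitosis genes were higher on balance at day 5, after their lowest medians of the series at day 3. Of 40 measured replication genes 32 were above 0 and 8 below it, 14 were at least 0.25 higher and 3 at least 0.25 lower, and the median was 0.16 (0.077 with the reference centring). E2f7, an E2F repressor, was at 5.66 at day 3 and 6.49 at day 5, and the GINS helicase subunits Gins1 (0.79) and Gins2 (0.55) and the replication factor Mcm10 (0.47) were higher. Ccne1, cyclin E1 (-0.54), Tyms, thymidylate synthase (-0.47), and Chaf1a (-0.45) were lower. Among 43 mitosis genes 12 were at least 0.25 higher and 5 at least 0.25 lower, at a median of 0.18 (0.099 with the reference centring). The kinesin Kif4 was at 5.89 at day 3 and 6.64 at day 5, and Kif15 (0.64), Ccna2, cyclin A (0.55), and Pbk (0.50) were higher. The 5 lower members were Cdc20, an activator of the anaphase-promoting complex, at 8.91 at day 3 and 8.36 at day 5, Ube2c, that complex's ubiquitin-conjugating enzyme (-0.39), Ccnb2, cyclin B (-0.41), Espl1, separase (-0.40), and Ttk (-0.30). Mki67, a marker of cycling cells, was at 11.60 at day 0, 11.77 at day 1, 11.34 at day 2, 9.68 at day 3 and 9.61 at day 5, with almost no step from day 3 to day 5.

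Against day 0 the mitosis list had medians of 0.37 at day 1, -0.25 at day 2, -1.91 at day 3 and -1.73 at day 5. Day 5 was thus closer to day 3 than to any other day. Cyclin D genes had a larger step. Ccnd2 was at 8.42 at day 0, 5.39 at day 1, 5.27 at day 2, 4.13 at day 3 and 5.11 at day 5, and Ccnd1 at 10.91 at day 0, 10.86 at day 1, 9.89 at day 2, 7.42 at day 3 and 8.35 at day 5. Both had their minimum at day 3. The 18 measured G1 genes had a median of 0.035, which was -0.047 with the reference centring, and Cdkn1b, the inhibitor p27, was lower (-0.41). Of 26 histone genes 12 were at least 0.25 higher and 6 at least 0.25 lower, at a median of 0.12. It was 0.038 with the reference centring, 0.041 with no level filter and 0.19 with each gene's rows averaged. H2bc3 was at 11.05 at day 0, 11.33 at day 1, 11.05 at day 2, 8.90 at day 3 and 9.84 at day 5, with its minimum at day 3, and the linker histone gene H1f10 was lower (-0.53). Replication-dependent histone genes are near-identical copies whose probes can cross-hybridise.

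The CHR-like letters TTTGAA, known from promoters of G2 and mitosis genes, were searched on both strands in the same windows, again with matches in capitals. Shown are 2 higher members, Kif15 (chr9:122950981-122951080, plus strand) and Kif11 (chr19:37376282-37376381, plus strand), and 2 lower ones, Cdc20 (chr4:118437344-118437443, minus strand) and Ccnb2 (chr9:70421652-70421751, minus strand), since both directions carry the letters. They end 1 base before the start in Kif15, Kif11 and Cdc20 and 98 before it in Ccnb2.
Kif15: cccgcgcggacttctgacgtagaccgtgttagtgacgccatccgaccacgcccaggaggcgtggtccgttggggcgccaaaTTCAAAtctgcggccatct
Kif11: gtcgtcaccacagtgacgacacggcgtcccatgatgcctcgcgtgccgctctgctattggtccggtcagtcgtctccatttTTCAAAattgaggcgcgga
Cdc20: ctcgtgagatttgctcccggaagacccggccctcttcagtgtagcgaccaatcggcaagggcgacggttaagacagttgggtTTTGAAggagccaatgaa
Ccnb2: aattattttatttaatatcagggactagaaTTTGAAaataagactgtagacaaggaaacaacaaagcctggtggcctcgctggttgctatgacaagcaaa
The letters were found for 26 of the 34 mitosis genes with a promoter window (76.5%), against 14.2% of measured genes with one. Of the 36 matches, 1 overlapped another motif. The median was 0.17 with and 0.18 without them. E2F-like letters, TTTGGCGC, were found for 5 of 35 replication genes with a window (14.3%, against 1.14% of measured genes with one). The median was 0.16 in the 5 genes with them and 0.15 in the 30 without, and 0 and 11 were at least 0.25 higher.

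Translation genes had small shifts, mostly below 0. All 8 chaperonin subunits, which fold actin and tubulin, lay below 0, with a median of -0.14 and a range from -0.17 to -0.05, and none reached 0.25. Of 18 aminoacyl-tRNA synthetases 14 were below 0 and 3 above, at a median of -0.10. Gars, glycyl-tRNA synthetase, was at 11.58 at day 3 and 11.32 at day 5, Yars had -0.21 and Lars 0.15. Of 61 cytosolic ribosomal proteins 42 were below 0 and 15 above, at a median of -0.027, with Rpl39 (-0.66) and Rps16 (-0.58) the most negative and Rpl26 (0.37) the most positive. Ribosomal protein genes have many processed copies, which probes may not tell apart. Mitochondrial ribosomal proteins had 43 below and 19 above 0 of 71, initiation factors 27 and 18 of 48. The medians of both were within 0.04 of 0. Over all measured genes the same counts were 45% and 45.8%. The reference centring lowers all of them, to -0.11 for cytosolic ribosomal proteins, -0.12 for mitochondrial ones, -0.11 for initiation factors, -0.18 for synthetases and -0.22 for the chaperonin.

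Energy genes were at nearly the same level on both arrays. Respiratory chain and ATP synthase subunits (75) had a median of -0.031, and their median against day 0 was 0.63 at day 3 and 0.63 at day 5. The largest members were Ndufb11, of complex I (0.78), Atp5g1 (0.66) and Cox7c (-0.38). Of 20 tricarboxylic acid cycle genes 13 were below 0, at a median of -0.078, and Dlat, of the pyruvate dehydrogenase complex, had -0.30. Proteasome subunits (47) had a median of -0.021, and Psmb3 stood apart (-0.59). Ribosome biogenesis genes (30) had -0.03 and glycolysis genes (18) -0.024. With the reference centring these medians were -0.11 for the respiratory chain, -0.16 for the cycle, -0.10 for the proteasome, -0.11 for ribosome biogenesis and -0.10 for glycolysis.

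Cathepsin, lysosomal, lipid handling and antioxidant genes were more often above 0 than below it, by small amounts that the reference centring lowered. Of 13 cathepsins 11 were above 0, at a median of 0.16 (0.077 with the reference centring), and Ctsl, a lysosomal cysteine protease, was at 10.70 at day 3 and 11.20 at day 5, with Ctsc (0.46) and Ctsf (0.38) next. Of 30 lysosomal genes 4 were at least 0.25 higher and 0 at least 0.25 lower, at a median of 0.087 that was 0.0052 with that centring. Scarb2, a lysosomal membrane receptor, was at 7.74 at day 3 and 8.40 at day 5. In cholesterol efflux and lipid handling (16, median 0.17, centred 0.087) the nuclear receptor LXR alpha, Nr1h3, was higher (0.64), as were Apoc2 (0.62) and Fabp4 (0.45). The efflux transporters Abcg1, at 9.77 at day 3 and 8.89 at day 5, and Abca1 (-0.34) were lower. Cholesterol synthesis genes had 9 members above and 10 below 0 and a median of -0.075 (centred -0.16), with Hmgcs1 at -0.37. The SRE-like letters TCACNCCAC were found for 1 of the 15 genes of that list with a promoter window, against 1.35% of measured genes with one. Of 16 NRF2 and antioxidant genes 14 were above 0 and 2 below it, at a median of 0.11 (centred 0.033). Nqo1 (0.41), Gsr (0.39) and Gclm (0.37) were at least 0.25 higher. ARE-like letters, TGACNNNGC, were found for 5 of the 13 genes of this list with a promoter window (38.5%, against 16.8% of measured genes with one). Iron genes had a median of 0.055, -0.026 with the reference centring, with Tfrc, the transferrin receptor (0.52), and Slc40a1, the iron exporter (0.40), the largest.

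Secreted factors differed among themselves. Of 18 chemokine genes 7 were at least 0.25 higher and 4 at least 0.25 lower, at a median of 0.043 that turned to -0.038 with the reference centring. Ccl5 was at 8.41 at day 3 and 9.18 at day 5 and Cxcl16 had 0.58, besides Cxcl14 and Cxcl13 above. Ccl28 (-0.71), Ccl3 (-0.41) and Ccl7 (-0.40) were lower. Among 10 factors that osteoclasts release, 4 were at least 0.25 higher and 1 at least 0.25 lower, with Bmp2 (0.67) and Igf1 (0.38) higher. Next to Slc6a4, the vesicular monoamine transporter Slc18a1 was at 10.84 at day 3 and 10.89 at day 5 and Maoa, monoamine oxidase A, had 0.42. Next to Ly6i, Ly6c2 (-0.83) and Ly6a2 (-0.52) were lower. Beside Chil3, Clec10a (-0.58) was lower and Arg1, arginase, higher (0.75).

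**Figure D4:**
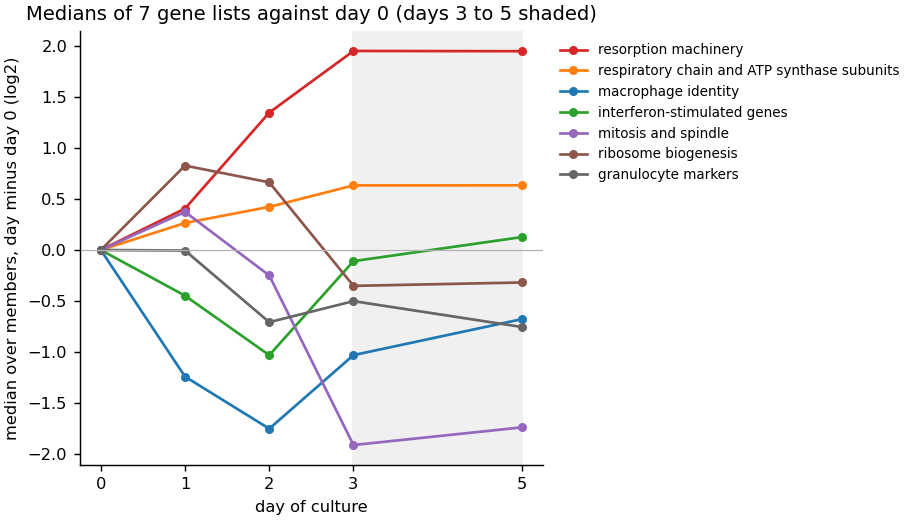
Median log2 difference from day 0 (y axis) of the measured members of 7 gene lists on each day (x axis, 1 array per day), with the interval from day 3 to day 5 shaded. Resorption genes are at 1.95 and 1.94 on the last 2 arrays, whereas macrophage genes go from -1.03 to -0.68 after a minimum at day 2.

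Genes that differed most between days 0 and 2 showed small shifts in the opposite direction in the last interval. They were chosen from day 2 against day 0, arrays that the comparison of days 5 and 3 does not share. Of the 624 genes at least 2-fold higher at day 2 than at day 0 (5.18% of measured genes), 187 (30.0%) were at least 0.25 lower at day 5 than at day 3 and 39 (6.25%) at least 0.25 higher, at a median of -0.13. Of the 632 genes at least 2-fold lower at day 2 (5.25%), 270 (42.7%) were at least 0.25 higher and 37 (5.85%) at least 0.25 lower, at a median of 0.20. The 161 genes 4-fold higher had a median of -0.17, and the 117 genes 4-fold lower 0.30. In the 10793 genes under 2-fold the median was 0, with 11.0% higher and 9.56% lower. With the reference centring the medians were -0.21 and 0.13 (680 and 576 genes), so the direction held and the sizes changed. Macrophage identity, complement and interferon-stimulated genes had medians of -1.75, -1.58 and -1.03 at day 2 against day 0. Whether their later shifts go beyond those of other genes lower at day 2 was not tested. No test was made, since each day is 1 array, and the part of the single day 3 array in these shifts was not tested. The plot of cumulative shares shows both groups displaced from 0.

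**Figure D5:**
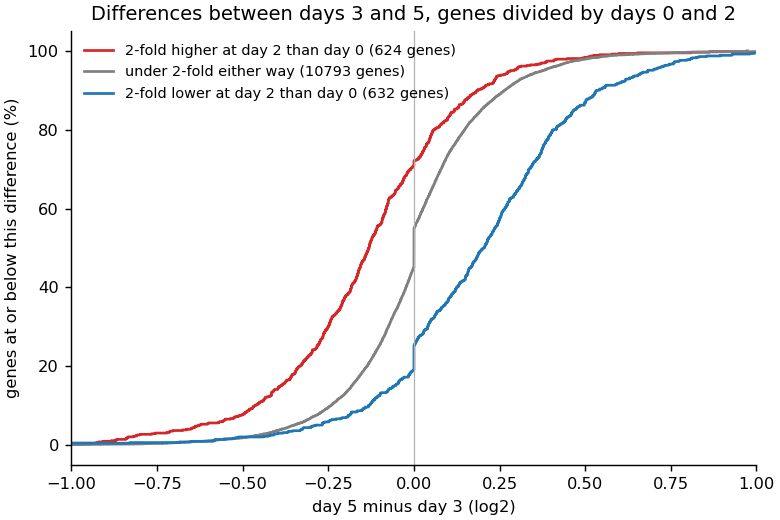
Cumulative share of genes (y axis) by the difference of day 5 minus day 3 (x axis, log2, drawn from -1 to 1) for genes at least 2-fold higher (624), at least 2-fold lower (632) or under 2-fold (10793) at day 2 against day 0. The curve of the genes that were higher at day 2 lies to the left, with a median of -0.13, and that of the genes that were lower lies to the right, with a median of 0.20.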

How the data were processed

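Total RNA (5 ng per array, per the labels) was labelled with the WT Pico kit and hybridised to 1 array per day. The deposited values are log2 expression made with RMA in the oligo package, R 3.4.0, per the submitters' processing notes. How rows group probes, and on which genome build, is not stated in any source used here. RMA scales all arrays to one distribution, so a shift shared by all genes cannot be seen, and it compresses differences near background.

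Of 41345 rows, 23521 named 1 gene, 1814 several and 16010 were not listed in the platform annotation. Where a gene had more than 1 row (1082 genes), its brightest row on average was taken. Of 22180 symbols, 22139 were found in RefSeq of GRCm38.p6, which also gave the promoter windows. Differences, list counts (41 lists, 39 families defined by symbol) and motif matches were computed with Python 3.11.15, numpy 2.4.6, pandas 2.3.3 and matplotlib 3.10.9, and the calculation was tested on simulated data. The number of arrays limits the precision: with 1 array a day no p-value, SE or test is given. Thresholds were 1 (2-fold) and 0.25 (1.19-fold) on the log2 scale.

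Named were the 15 largest differences each way among measured genes without clone, predicted, microRNA, small nucleolar RNA, olfactory, vomeronasal or receptor segment names, the largest members of each list described (the largest each way and up to 3 more), and a fixed set of osteoclast, macrophage and marker genes. Further list members were named after their values were seen. The comparison, members, lists and families were chosen with earlier results of these data known, and the histone and Irf families were widened to newer symbols. Scaling, level filter, row choice and list summary were varied.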

Additional observations from a re-analysis of the deposited data

How the results depend on the processing

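Alternatives were 2 centrings, 3 level filters, a gene's rows averaged, and list means in place of medians. The alternatives for genes chosen on days 0 and 2 were added after seeing the data. Genes at least 2-fold higher numbered 57 with no level filter, 3 with a stricter filter (75th percentile of the row means) and 34 with the filter on the higher of days 3 and 5. The lower ones numbered 52, 1 and 22, and 27 with the reference centring. Genes at least 0.25 higher numbered 909 with the reference centring, 2674 with no filter and 715 with the 75th percentile filter, and the lower ones 2088, 2562 and 533. The reference centring shifts every difference by -0.081 by construction. It gave medians of -0.10 for resorption, -0.11 for RANK, ITAM and transcription, 0.29 for macrophage identity, -0.18 for tRNA synthetases, 0.077 for replication, 0.099 for mitosis, 0.15 for interferon-stimulated genes, 0.32 for complement, -0.39 for granulocyte markers, -0.11 for cytosolic ribosomal proteins and -0.22 for the chaperonin. The mean over members was 0.30 for macrophage identity and 0.11 for mitosis. Granulocyte markers had -0.12 with the 75th percentile filter, which left 4 members. Genes 2-fold higher at day 2 had a median of -0.21 with the reference centring and -0.12 when chosen on day 1 against day 0. Genes 2-fold lower had 0.13 with the reference centring, 0.19 with no filter, 0.24 with the 75th percentile filter and 0.15 when chosen on day 1. The median of S100 proteins turned from -0.11 to 0.098 with the 75th percentile filter (7 members). For shifts other than those of the centring and of fewer genes or members, the cause was not tested. No paired analysis was possible because each day has 1 array and the labels give no replicate numbers, and no replicate could be left out.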

Other observations

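Other families held single members that differed more than the rest. Of 16 measured BCL2 family genes, 6 were at least 0.25 higher at day 5 and 2 at least 0.25 lower, at a median of 0.13. That median was 0.045 with the reference centring, 0.071 with the 75th percentile filter and 0.038 with each gene's rows averaged. Bcl2, which protects cells from apoptosis, was at 6.41 at day 3 and 6.80 at day 5, and the pro-apoptotic Bmf was at 6.84 and 6.37 and Bcl2l11, which encodes BIM, at 9.21 and 8.83. Among 33 interleukin and receptor genes, Il7r, the interleukin 7 receptor, was at 8.06 at day 3 and 8.87 at day 5. Of 20 C-type lectins, Clec4n, also called Dectin-2, was at 10.79 and 11.55 and Clec4d at 10.95 and 11.47. In the family of MMPs, ADAMs and TIMPs (31 measured, 2 at least 0.25 higher and 6 at least 0.25 lower), the metalloproteinase inhibitor Timp2 was at 9.84 and 9.03 and the elastase Mmp12 at 10.68 and 10.18. Of 12 fatty acid genes, the desaturase Fads1 was at 8.88 and 9.35 and the synthase Fasn at 8.89 and 8.56. These are differences between single arrays.

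Rows that name no gene differed more than named rows. Of 7065 rows at the level filter that were not listed in the annotation, 239 were 2-fold or more above and 288 as far below their day 3 value at day 5 (7.46%), and the SD of their differences was 0.54. Of 12661 rows naming 1 gene, 21 were above and 15 below (0.284%), with an SD of 0.24. The identity of the unlisted rows was not analysed here.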
